A study of Mus musculus with 6 samples.

Results

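Keratins are the intermediate filament proteins of epithelial cells, and 8 keratin genes were followed here across alveolar organoids and sorted lung cells. The genes were chosen by symbol, as the rows Krt7, Krt8, Krt18, Krt19, Krt5, Krt14, Krt15 and Krt17 of the organoid tables. They are 8 of 32285 gene rows, and 53 rows in all are keratin genes. Krt7, Krt8, Krt18 and Krt19 are treated together as simple keratins. Krt5, Krt14, Krt15 and Krt17 are treated together as stratified keratins.

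The study asked how PDGFRa+ lung fibroblasts (FBs) from normal or bleomycin-injured mice support alveolar type 2 epithelial cells (AEC2s) in organoids. The normal organoids combined tomato+ AEC2s with GFP+ PDGFRa+ FBs of PDGFRa-EGFP mice dosed with PBS. The fibrogenic organoids combined the same kind of AEC2s with GFP+ FBs of mice given bleomycin at 2 U/kg by oropharyngeal aspiration. FB donors were harvested at day 14. All AEC2 donors carried SpcCreER, a tamoxifen-inducible Cre under the surfactant protein C promoter, and received tamoxifen, so that the tomato label marks cells that expressed Sftpc at that time and their descendants. Cells were embedded in matrigel and kept in culture for 2 weeks, and AEC2s were uninjured in both conditions. The labels give a mix of 10:1 and name AEC2s first, while the cell numbers in the study's methods give another ratio with FBs in excess, so the mix is not settled here. The repetitive libraries held GFP+ sorted lung cells of PDGFRa-EGFP mice after 3 weekly doses of PBS or of bleomycin, with 1 U/kg in the first and second dose and 0.5 U/kg in the last, and were taken 2 weeks later. The single-dose libraries held GFP+ lung cells at day 14 after PBS or bleomycin, for which the labels give both 2 and 4 U/kg. GFP in these mice reports Pdgfra, which lung epithelium does not normally use. Ages were not given in the labels.

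Keratin filaments form from pairs of an acidic (type I) and a basic (type II) chain. Krt8 (type II) and Krt18 (type I) form the first pair of simple epithelia, and Krt7 (type II) and Krt19 (type I) join them in ducts, airways and the alveolar epithelium. Krt5 (type II) and Krt14 (type I) are the basal cell pair of stratified and airway epithelium, Krt15 is a further basal type I chain, and Krt17 is a type I chain induced in wounded epidermis. In the injured alveolus, cells on the way from AEC2 to alveolar type 1 cells (AEC1s) pass a pre-alveolar type 1 transitional state (PATS), for which Krt8 is a common marker. Mesothelial cells, the lining of the pleura, also hold simple keratins.

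The members lie in the 2 keratin clusters of the mouse genome. On GRCm38 with the GENCODE M21 annotation, the type II genes Krt7 (chromosome 15, 101411043 to 101430313, plus strand), Krt5 (101707070 to 101712898, minus strand) and Krt8 (101996698 to 102004482, minus strand) share chromosome 15 with the type I gene Krt18 (102028180 to 102032027, plus strand). Krt8 and Krt18 face away from each other with 23.7 kb between them. The other type I genes lie on chromosome 11, with Krt15 at 100131758 to 100135928, Krt19 at 100140810 to 100148665, Krt14 at 100203162 to 100207548 and Krt17 at 100256217 to 100261029, all on the minus strand.

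The 250 bases before the RefSeq start (GRCm38.p6) are shown for Krt7, the member shared with AEC1s below, and for Krt8 and Krt18, the pair of simple epithelia. The GENCODE spans begin further upstream for all 3. Windows are chr15:101412153-101412402 on the plus strand for Krt7, chr15:102004343-102004592 on the minus strand for Krt8 and chr15:102027966-102028215 on the plus strand for Krt18. Capitals mark matches to the GC box letters GGGCGG on either strand.
Krt7: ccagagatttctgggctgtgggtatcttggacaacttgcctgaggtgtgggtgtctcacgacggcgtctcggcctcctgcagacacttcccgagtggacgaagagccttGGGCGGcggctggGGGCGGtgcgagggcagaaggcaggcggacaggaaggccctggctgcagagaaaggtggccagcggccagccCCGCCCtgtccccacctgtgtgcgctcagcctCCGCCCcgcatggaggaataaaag
Krt8: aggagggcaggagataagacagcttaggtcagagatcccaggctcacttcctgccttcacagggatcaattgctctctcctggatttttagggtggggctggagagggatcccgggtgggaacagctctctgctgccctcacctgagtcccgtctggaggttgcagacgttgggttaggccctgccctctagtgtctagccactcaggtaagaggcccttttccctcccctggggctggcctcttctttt
Krt18: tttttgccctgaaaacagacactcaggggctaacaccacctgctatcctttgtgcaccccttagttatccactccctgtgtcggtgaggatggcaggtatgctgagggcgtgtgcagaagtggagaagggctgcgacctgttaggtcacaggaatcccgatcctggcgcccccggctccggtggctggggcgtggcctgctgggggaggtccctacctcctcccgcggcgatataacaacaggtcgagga
The Krt7 window held 4 GC box matches, beginning 141, 128, 56 and 24 bases before the start, and was 66% G and C. The Krt8 and Krt18 windows held none and were 58% and 60.4% G and C. Across 32851 windows of 250 bases, 32.7% held the GC box. The AP-1 letters TGANTCA (in 6.75% of windows) and the TATA box letters TATAAA (in 12.4%) were not found in these 3 windows, nor in those of Krt5 and Krt14, which also held no GC box. A match is a description of the letters in the window. No window was available for Krt15, Krt17 and Krt19, so their letters were not searched.

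Each condition was 1 library from 3 pooled mice. No test of a condition is therefore possible, all values are descriptions of these libraries, and intervals are 95% and cover counting error only. Counts are unique molecular identifiers (UMIs), and levels are counts per 1000000 UMIs (CPM), summed over the barcodes of a group. The organoid libraries held 5441 barcodes and 211680702 UMIs (normal) and 8894 barcodes and 238618743 UMIs (fibrogenic). Their median depths differed, at 36841 and 4289.5 UMIs per barcode, and 15.9% and 33.5% of barcodes had under 2000 UMIs. The organoid libraries shared 13 barcodes and the repetitive libraries 28. The other libraries held between 7201081 and 68354458 UMIs. No library listed UMIs of the tomato transgene, so the lineage label could not be read.

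Barcodes were grouped by clusters named from marker genes, with all keratins left out of the clustering. The AEC2-like group held 1154 normal and 1177 fibrogenic barcodes, the cycling epithelial group 201 and 144, the AEC2/AEC1-like group 173 and 193, the AEC1-like group 112 and 92, the PATS/AEC1-like group 24 and 64 and the PATS-like group 173 and 193. Sftpc, the surfactant protein C gene of AEC2s, stood at 85120 CPM in normal and 86271 CPM in fibrogenic AEC2-like cells. Ager, a receptor gene of AEC1s, stood at 6440 and 6506 CPM in the AEC1-like group against 611 and 505 CPM in the AEC2-like group. Cldn4, a claudin of the transitional state, stood at 856 and 1159 CPM in the PATS-like group against 7.29 and 6.86 CPM in the AEC2-like group. The PATS-like groups were not alike in every marker, since Sftpc was 6518 CPM in the normal and 1869 CPM in the fibrogenic library. An epithelial cluster of 58 normal and 211 fibrogenic barcodes, with median depths of 1491.5 and 1769 UMIs, stayed unnamed for its low depth although 7 of its 8 PATS markers passed.

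Summed over the 4 genes, the simple keratins were highest in the PATS-like group and lowest among the named groups in the AEC2-like group, in both libraries. The sum reached 14138 CPM in normal and 15089 CPM in fibrogenic PATS-like cells, against 1285 and 1195 CPM in AEC2-like cells. The log2 ratio of PATS-like over AEC2-like was 3.46 (3.44 to 3.47) in the normal and 3.66 (3.64 to 3.67) in the fibrogenic library. In between came cycling epithelial cells (1411 and 1423 CPM), AEC2/AEC1-like cells (1857 and 1561 CPM), AEC1-like cells (3055 and 2885 CPM) and PATS/AEC1-like cells (8447 and 9662 CPM). This order of the sum was the same in both libraries. Single genes departed from it at the low end, since Krt8 was lower in AEC2/AEC1-like (410 and 369 CPM) than in AEC2-like cells (439 and 433 CPM), and Krt19 in the normal library was lower in cycling (223 CPM) than in AEC2-like cells (239 CPM). In the fibrogenic library Krt19 was lower in AEC2/AEC1-like (182 CPM) than in cycling cells (187 CPM). Each of the 4 simple keratins was higher in PATS-like than in AEC2-like cells by a log2 ratio of at least 1 in each library. Of all genes with at least 10 CPM in AEC2-like cells, 11.1% were that much higher in the normal library and 10.5% in the fibrogenic library, and the median gene stood at 0.20 and 0.17. Of these 2 groups, Krt17 passed 10 CPM in PATS-like cells only, so that it had to differ and is not counted here. Because clusters were formed from genes of the same barcodes, this contrast is a description.

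**Figure D1:**
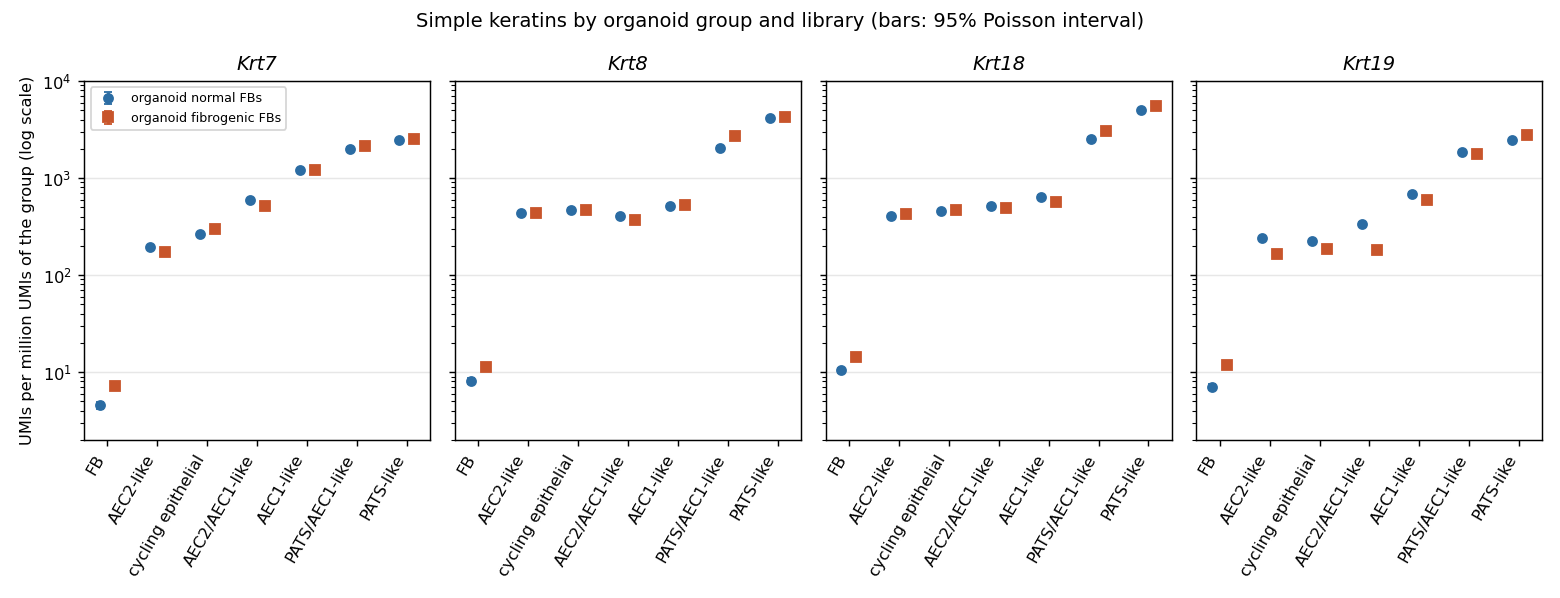
Level of Krt7, Krt8, Krt18 and Krt19 (1 panel each) in CPM (log scale) by organoid group, with circles for normal and squares for fibrogenic organoids and bars for 95% Poisson intervals of the count. Krt8 stands at 4167 and 4294 CPM in the PATS-like group and at 8.10 and 11.2 CPM in FBs.

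Krt8, the basic chain of the simple epithelial pair, stood at 439 CPM (434 to 445) in normal and 433 CPM (425 to 440) in fibrogenic AEC2-like cells. It stood at 515 and 524 CPM in AEC1-like cells, so AEC1-like and AEC2-like cells differed by log2 ratios of 0.23 and 0.28. With barcodes assigned 1 by 1 to the marker list they held most, these became 0.43 and 1.02. In PATS-like cells Krt8 stood at 4167 CPM (4123 to 4211) and 4294 CPM (4252 to 4337), above AEC1-like cells by log2 ratios of 3.01 and 3.03. Krt8 thus set the PATS-like group apart from both AEC2-like and AEC1-like cells. Krt18, its acidic partner, followed the same order, with 410 and 421 CPM in AEC2-like, 638 and 563 CPM in AEC1-like and 5001 and 5496 CPM in PATS-like cells. The log2 ratio of PATS-like over AEC2-like for Krt18 was 3.61 in the normal and 3.70 in the fibrogenic library.

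The Krt8 to Krt18 balance differed between the named groups by more than counting error. There were 1.07 (1.05 to 1.09) and 1.03 (1.00 to 1.05) Krt8 UMIs per Krt18 UMI in AEC2-like cells. PATS-like cells had 0.83 (0.82 to 0.85) and 0.78 (0.77 to 0.79). Cycling cells lay in between (1.05 and 1.00). AEC1-like (0.81 and 0.93) and PATS/AEC1-like cells (0.80 and 0.90) lay in between in the fibrogenic library only. In the normal library they were slightly below PATS-like cells, with overlapping intervals. AEC2/AEC1-like cells were lowest (0.79 and 0.76). The unnamed low-depth cluster stood apart in the normal library, at 0.46 (0.42 to 0.52), and at 0.74 in the fibrogenic library. UMIs count molecules and are not scaled by transcript length, so these ratios are compared between groups only. Over 27 points, each an epithelial cluster in 1 library, Krt8 and Krt18 log2 levels had a Pearson r of 0.98. The points share libraries and differ in depth, and r is given as a description.

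Krt7, a basic chain of ducts, airways and AEC1s, had another pattern. It stood at 197 and 174 CPM in AEC2-like cells, at 592 and 521 CPM in AEC2/AEC1-like cells, at 1213 and 1200 CPM in AEC1-like cells and at 2481 and 2538 CPM in PATS-like cells. AEC1-like cells were above AEC2-like cells by log2 ratios of 2.62 (normal) and 2.78 (fibrogenic), where Krt8 differed by 0.23 and 0.28. PATS-like cells were above AEC1-like cells by 1.03 and 1.08. Krt7 was therefore high in both the AEC1-like and the PATS-like groups, and Krt8 in the PATS-like groups. There were 0.45 and 0.40 Krt7 UMIs per Krt8 UMI in AEC2-like cells, 1.44 and 1.41 in AEC2/AEC1-like cells, 2.36 and 2.29 in AEC1-like cells, 0.97 and 0.79 in PATS/AEC1-like cells and 0.60 and 0.59 in PATS-like cells. The highest ratio was in the AEC1-like group in both libraries.

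Krt19, the tail-less acidic chain, lay between these patterns. It stood at 239 and 166 CPM in AEC2-like, 689 and 597 CPM in AEC1-like and 2489 and 2760 CPM in PATS-like cells. AEC1-like cells were above AEC2-like cells by log2 ratios of 1.52 and 1.84. Of the 4 members compared between AEC1-like and AEC2-like cells, Krt7 and Krt19 were higher by at least 1 and Krt8 and Krt18 were not, against 13.9% of all genes in the normal and 12.8% in the fibrogenic library. With barcodes assigned 1 by 1 by relative marker share, Krt8 was called higher in the fibrogenic library, at 1.02, and not in the normal library, at 0.43. Between PATS-like and AEC1-like cells the 4 simple keratins were higher by at least 1, against 12.6% and 12.3% of all genes, and of these 2 groups Krt17 again passed 10 CPM in PATS-like cells only.

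**Figure D2:**
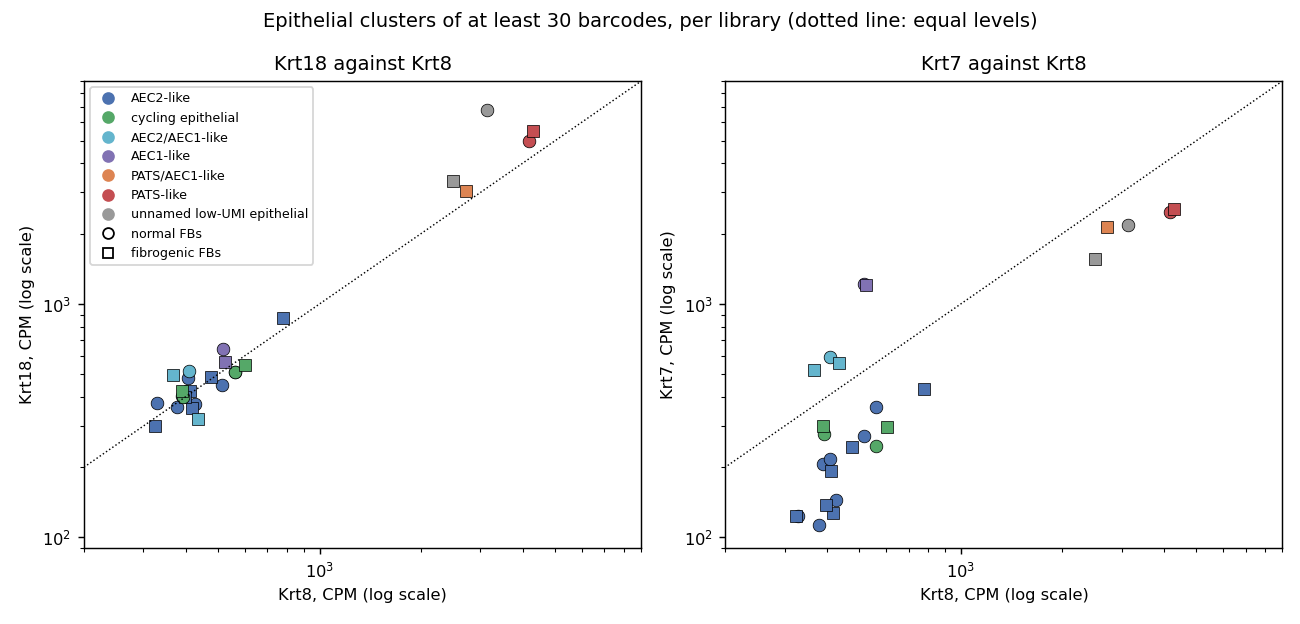
Krt18 (left) and Krt7 (right) against Krt8 in CPM (log axes), with 1 point per epithelial cluster of at least 30 barcodes and library, circles for normal and squares for fibrogenic organoids, colours for groups and a dotted line for equal levels. Krt18 lies near the line in the named groups, with the normal low-depth cluster off it (6765 CPM of Krt18 and 3140 CPM of Krt8), while Krt7 in the AEC1-like points (1213 and 1200 CPM) lies above the line at a Krt8 level near that of AEC2-like points.

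The pattern was also seen barcode by barcode in the named groups. The summed simple keratins had a median of 10.8 UMIs per 10000 UMIs in normal and 9.68 in fibrogenic AEC2-like barcodes, 27.1 and 24.9 in AEC1-like barcodes and 125 and 126 in PATS-like barcodes. Medians in the unnamed low-depth cluster were 127 in the normal and 79.1 in the fibrogenic library. The 10th to 90th percentiles of PATS-like barcodes ran from 51.1 to 226 in the normal and from 64.6 to 237 in the fibrogenic library. Among barcodes with at least 10000 UMIs, 6 of 1003 normal AEC2-like barcodes (0.598%) and 3 of 671 fibrogenic ones (0.447%) were above the 10th percentile of PATS-like barcodes. For Krt8 alone, 1.85% and 3.30% of AEC1-like barcodes passed that level, and for Krt7 alone 65.7% and 53.8% did. AEC1-like and PATS-like barcodes thus overlapped in Krt7 and were nearly apart in Krt8, with the PATS/AEC1-like barcodes named apart. Those had Krt8 medians of 14.9 and 18.5 per 10000 UMIs, between AEC1-like (4.22 and 4.22) and PATS-like barcodes (33.2 and 35.4).

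**Figure D3:**
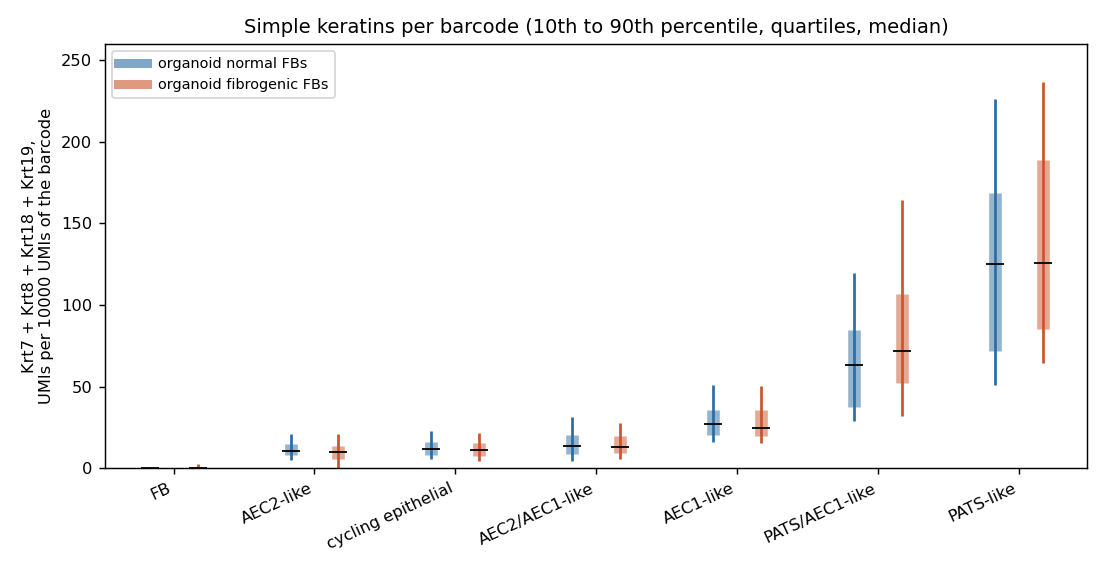
Summed simple keratin UMIs per 10000 UMIs of a barcode by group and library, with dashes for medians, thick bars for quartiles and thin lines from the 10th to the 90th percentile of barcodes. Medians are 125 and 126 in the PATS-like group and 10.8 and 9.68 in the AEC2-like group, and the lines of these groups do not overlap.

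Shares of barcodes with a UMI depend on depth, and were therefore also read after each barcode was thinned to 2000 UMIs. Thinning left out 69 normal and 294 fibrogenic AEC2-like barcodes, 5 and 0 PATS-like barcodes and 41 and 632 FBs as too shallow. After thinning, Krt8 was found in 99.4% of normal and 98.4% of fibrogenic PATS-like barcodes, in 61.6% and 59.8% of AEC1-like barcodes and in 53.4% and 52.7% of AEC2-like barcodes. In FBs, which should lack keratins, it was found in 1.08% and 3.25%, and this is taken as the background. Before thinning, single FB barcodes held up to 187 and 250 Krt8 UMIs, and the part of doublets in this background was not tested. Without thinning, 93.2% and 74.1% of AEC2-like barcodes and 19.1% and 22.8% of FBs held a Krt8 UMI, with median AEC2-like depths of 41608.5 and 29620 UMIs. The summed FB levels were 8.10 and 11.2 CPM for Krt8, 10.4 and 14.1 CPM for Krt18, 4.55 and 7.14 CPM for Krt7 and 7.07 and 11.9 CPM for Krt19. All were far below the epithelial groups.

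Over all epithelial barcodes together, every simple keratin was higher in fibrogenic organoids. Krt18 stood at 950 CPM in normal and 1368 CPM in fibrogenic organoids (log2 ratio 0.53), Krt8 at 857 and 1154 CPM (0.43), Krt7 at 551 and 743 CPM (0.43) and Krt19 at 523 and 680 CPM (0.38). Their sum stood at 2881 and 3946 CPM, a log2 ratio of 0.45 (0.45 to 0.46). None of the 5 members compared reached a log2 ratio of 1, against 0.195% of all genes higher and 0.158% lower by that much. With each barcode weighted equally instead of by its UMIs the log2 ratio of the sum was 0.25, and it was 0.13 when the unnamed low-depth cluster was also left out.

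The makeup of the epithelium differed between these 2 libraries. PATS-like cells gave 10.4% of epithelial UMIs in normal and 15.5% in fibrogenic organoids, and 51.1% and 59.1% of simple keratin UMIs. As a share of epithelial barcodes they hardly differed, at 9.13% and 9.31%. That share leaves out the unnamed low-depth cluster, in which 7 of 8 PATS markers passed and which held more of the fibrogenic barcodes. AEC2-like cells were 60.9% and 56.8% of epithelial barcodes, and 1 of their clusters held 96 normal and 496 fibrogenic barcodes at median depths of 2562 and 1715.5 UMIs. PATS/AEC1-like cells were 1.27% and 3.09% of epithelial barcodes, and the unnamed low-depth cluster 3.06% and 10.2%. PATS/AEC1-like cells gave 1.09% and 4.6% of epithelial UMIs, and 3.20% and 11.3% of simple keratin UMIs. AEC2-like cells gave 61.3% and 53.9% of epithelial UMIs, and 27.3% and 16.3% of simple keratin UMIs. With the normal levels of every group and the fibrogenic shares of UMIs, the sum would have stood at 3863 CPM, a log2 ratio of 0.42. With the normal shares and the fibrogenic levels it would have stood at 2901 CPM, a log2 ratio of 0.01. Gene by gene, the shares alone gave log2 ratios of 0.44 for Krt7, 0.38 for Krt8, 0.45 for Krt18 and 0.43 for Krt19, and the levels alone gave -0.02, 0.02, 0.08 and -0.11. Shares of UMIs move with depth, so the same was done with shares of barcodes and the mean level per barcode, a check added after seeing the data. The shares alone then gave a log2 ratio of 0.42 for the sum and the levels alone -0.08. Without the unnamed low-depth cluster they gave 0.12 and -0.01. The shares rest on 1 dissociation of 1 culture pool per condition and on libraries of unequal depth.

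Within the groups, fibrogenic and normal levels lay close together for most members. In PATS-like cells the log2 ratio of fibrogenic over normal was 0.03 for Krt7, 0.04 for Krt8, 0.14 for Krt18 and 0.15 for Krt19. None of the 5 members compared reached 1 in size, against 0.166% of all genes higher and 0.687% lower. The sum had a log2 ratio of 0.09 (0.08 to 0.11), which became -0.15 when clusters were cut at a finer resolution, so that no direction is given for PATS-like cells. Krt7, Krt8 and Krt18 also changed sign there, while Krt19 ran from 0.02 to 0.19 over the alternatives. In AEC1-like cells the ratios were -0.02 for Krt7, 0.03 for Krt8, -0.18 for Krt18 and -0.21 for Krt19, with none called against 0.0726% higher and 0.544% lower. The sum in AEC1-like cells had a log2 ratio of -0.08 and took 0.33 when barcodes were assigned 1 by 1, where Krt7, Krt8 and Krt18 were above 0.

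In AEC2-like cells Krt8 and Krt18 hardly differed, with log2 ratios of -0.02 and 0.04. Krt7 stood at -0.17, and at 0.06 with keratins kept in the clustering. Krt18 took -0.15 with barcodes weighted equally. Krt19 was lower in fibrogenic organoids, at 166 CPM (162 to 171) against 239 CPM (234 to 243), a log2 ratio of -0.52 (-0.56 to -0.47). None of these 4 members was called, against 0.361% of all genes higher and 0.116% lower. After thinning, Krt19 was found in 33.5% of normal and 25.1% of fibrogenic AEC2-like barcodes. The AEC2-like group was made of 7 clusters, whose Krt19 levels ran from 95.7 to 527 CPM, and Krt19 was lower in the fibrogenic library in 5 of the 7. With normal levels per cluster and fibrogenic cluster shares, the log2 ratio would have been -0.42 for Krt19, -0.24 for Krt7, -0.16 for Krt8 and -0.05 for Krt18. With normal shares and fibrogenic levels it would have been -0.08 for Krt19, 0.11 for Krt7, 0.08 for Krt8 and 0.15 for Krt18. Within clusters, Krt7 was lower in the fibrogenic library in 3 of the 7, and Krt8 and Krt18 in 2 each. A cluster low in Krt19, at 95.7 and 96.2 CPM, gave 10.3% of AEC2-like UMIs in normal and 35.9% in fibrogenic organoids.

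In AEC2/AEC1-like cells Krt19 differed further, at 337 CPM in normal and 182 CPM in fibrogenic organoids, a log2 ratio of -0.89 (-1.0 to -0.78). Here 1 cluster gave 172 of 173 normal and 154 of 193 fibrogenic barcodes, and within it Krt19 stood at 337 and 176 CPM. The other simple keratins differed less in this group, with log2 ratios of -0.18 for Krt7, -0.15 for Krt8 and -0.08 for Krt18. None was called, against 0.341% of all genes higher and 0.743% lower. In cycling epithelial cells the ratios were 0.18 for Krt7, -0.01 for Krt8, 0.05 for Krt18 and -0.25 for Krt19, with none called against 0.305% and 0.0855%. Krt19 was thus lower in the fibrogenic library in AEC2-like, cycling, AEC2/AEC1-like and AEC1-like cells, and at 0.15 in PATS-like cells, a difference between groups that was not tested.

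In the small PATS/AEC1-like group Krt8 stood at 2045 CPM in 24 normal barcodes and 2716 CPM in 64 fibrogenic barcodes, a log2 ratio of 0.41 (0.33 to 0.48). Krt18 stood at 2548 and 3030 CPM (0.25), Krt7 at 1992 and 2144 CPM (0.11) and Krt19 at 1860 and 1771 CPM (-0.07). None of these 4 was called, against 2.19% of all genes higher and 2.77% lower. Krt17 had 0 UMIs in normal and 51 UMIs in fibrogenic cells and passed 10 CPM in the latter only, so that it had to differ. Of those 51 UMIs, 46 came from 1 barcode. The unnamed low-depth cluster held 13563 CPM of simple keratins in the normal and 9035 CPM in the fibrogenic library, a log2 ratio of -0.59. Krt18 was called lower, at 6765 CPM in normal and 3368 CPM in fibrogenic barcodes, a log2 ratio of -1.01. Krt17 stood at -2.39 with 4 and 2 UMIs, and its interval (-4.31 to 0.16) spans 0, while Krt7 stood at -0.49, Krt8 at -0.33 and Krt19 at 0.13. Between these 2 libraries 34.2% of all genes were higher and 8.44% lower by at least 1 in this cluster, and the median gene stood at 0.50.

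**Figure D4:**
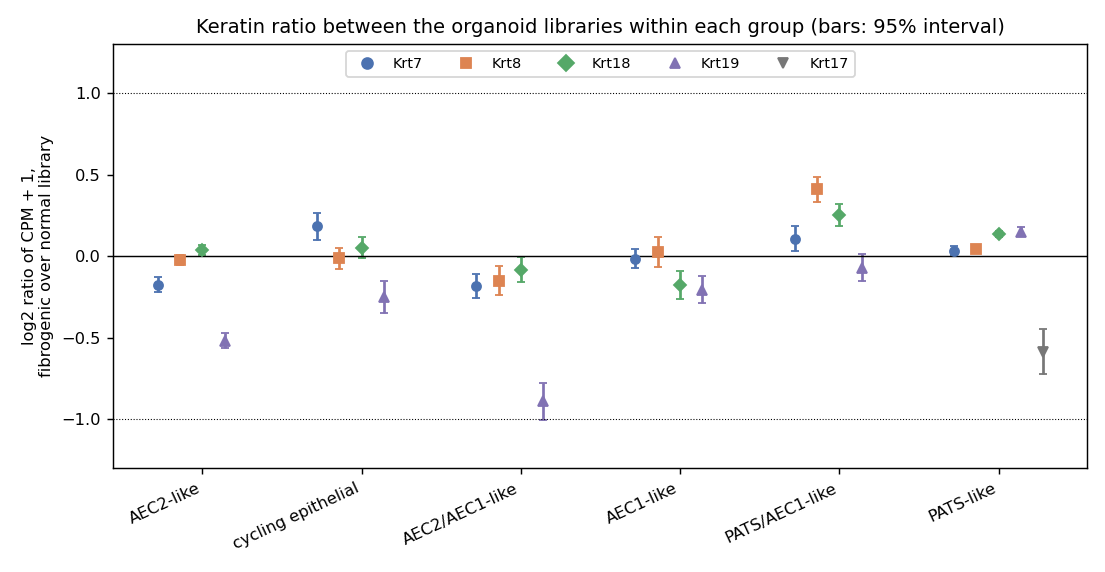
Log2 ratio of fibrogenic over normal CPM (after adding 1 CPM) for Krt7, Krt8, Krt18 and Krt19 by epithelial group, and for Krt17 in PATS-like cells, with bars for 95% counting intervals, a solid line at 0 and dotted lines at -1 and 1. Krt19 reaches -0.89 in the AEC2/AEC1-like group, Krt8 0.41 in the PATS/AEC1-like group and Krt17 -0.59 in the PATS-like group.

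Of the stratified keratins, only Krt17 was measured above a trace in the organoids. Over all epithelial barcodes, Krt5 had 1 UMI in normal and 0 in fibrogenic organoids, Krt14 had 0 and 1, and Krt15 had 16 and 18. Krt17 had 1016 and 796 UMIs, or 12.8 and 13.5 CPM. The sum of the 4 stratified keratins had a log2 ratio of 0.08 (-0.05 to 0.20) of fibrogenic over normal. This interval spans 0. With each barcode weighted equally the sum stood at 13.5 CPM in normal and 9.74 CPM in fibrogenic organoids, a log2 ratio of -0.43, so that no direction is given.

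Krt17 was held almost wholly by the PATS-like group, which gave 99.5% of epithelial Krt17 UMIs in normal and 93% in fibrogenic organoids. It stood at 122 CPM (115 to 130) in normal and 81.2 CPM (75.5 to 87.3) in fibrogenic PATS-like cells, a log2 ratio of -0.59 (-0.72 to -0.45). These intervals count UMIs as independent, although 1 normal barcode held 174 of the 1011 UMIs, so they are too narrow for a spread over barcodes. In AEC2-like cells it had 1 and 3 UMIs in all, and in AEC1-like cells 0 UMIs in both libraries, under limits of 0.691 and 0.914 CPM that a count of 0 allows. PATS-like cells were above AEC2-like cells by log2 ratios of 6.92 (1011 against 1 UMI) and 6.23 (740 against 3 UMIs).

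Only some PATS-like barcodes held Krt17. It was found in 31 of 173 normal barcodes (17.9%, 12.5% to 24.5%) and in 35 of 193 fibrogenic barcodes (18.1%, 13.0% to 24.3%), so these shares differed by less than counting error. In barcodes with Krt17, the median was 16 UMIs in normal and 12 UMIs in fibrogenic organoids, and the highest were 174 and 119 UMIs. The 17 normal and 20 fibrogenic barcodes with at least 10 UMIs held 972 of 1011 and 685 of 740 UMIs. FBs held Krt17 in 0.504% and 0.470% of barcodes, the background share. Krt17 was therefore uneven within the PATS-like group, where the simple keratins were found in nearly every barcode.

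Trp63, the transcription factor of basal cells, had no UMI in any Krt17 barcode, and neither had the basal cell genes Ngfr, Aqp3 and Dapl1, nor Krt5, Krt14 or Krt15. The basal marker list also held Snai2 and Tnfrsf11a, which were not counted in these barcodes. Of that list, 1 marker passed in the PATS-like cluster, as in the cycling epithelial and some AEC2-like clusters. It was Snai2 or Tnfrsf11a, since Trp63, Ngfr and Aqp3 had no UMI in PATS-like barcodes and Dapl1 was found in 1. The absence of basal genes from Krt17 barcodes therefore covers only the genes counted. The Krt17 barcodes had Krt8 medians of 40.4 per 10000 UMIs in normal and 47.0 in fibrogenic organoids, against 32.3 and 32.1 in PATS-like barcodes without Krt17. Their median depths were 45273 and 47260 UMIs, against 43135 and 42835.5 without Krt17. Krt6a, a wound keratin of the epidermis, had 45 and 38 UMIs in PATS-like cells, of which 17 and 15 lay in Krt17 barcodes.

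Beyond the members, 45 keratin genes were listed, of which 27 had any UMI in epithelial cells and 3 reached 10 CPM in a group. The 5 highest were Krt23, Krt10, Krt80, Krt6a and Krt20. Krt23, an acidic chain of simple epithelia, was higher in AEC2-like than in PATS-like cells, unlike the members compared, and lowest of the 3 in AEC1-like cells, at 37.1 and 29.8 CPM in AEC2-like, 17 and 25.7 CPM in PATS-like and 3.69 and 2.74 CPM in AEC1-like cells. Krt80 was at 22.3 and 23.4 CPM in PATS-like, 12.7 and 11.3 CPM in AEC1-like and 1.71 and 1.64 CPM in AEC2-like cells. Krt10 was about as high in FBs, at 12.3 and 10.7 CPM, as in AEC2-like cells, at 10.7 and 12.6 CPM. Krt20, a gut epithelial keratin, reached 5.09 and 4.06 CPM and Krt6a 5.45 and 4.17 CPM in PATS-like cells.

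Desmosomes and hemidesmosomes anchor keratin filaments at the membrane. Of 18 desmosome and linker genes, 8 had at least 10 CPM in normal and 9 in fibrogenic AEC2-like cells. In the normal library 5 of the 8 were higher in PATS-like cells and 0 lower by a log2 ratio of at least 1, with a median of 1.10 against 0.20 over all genes with that level, of which 11.1% were higher and 11.7% lower. In the fibrogenic library 4 of the 9 were higher and 1 lower, with a median of 0.96 against 0.17 over all genes, of which 10.5% were higher and 12.3% lower. Another 6 and 5 genes, Itgb4 and Perp among them, passed 10 CPM in PATS-like cells only, so that their values are descriptions. Itgb4, the hemidesmosome integrin chain that binds laminin outside and plectin inside, stood at 55.1 CPM in normal PATS-like against 0.742 CPM in AEC2-like cells (log2 ratio 5.01), and at 53.3 against 0.567 CPM in fibrogenic organoids (5.11). Perp, a desmosome membrane protein, followed with log2 ratios of 3.75 and 3.69. The lowest were Pkp4, an armadillo protein of cell junctions, at -0.98 and -1.32, and Ppl, the linker periplakin, at -0.16 and -0.01. Between fibrogenic and normal PATS-like cells, 0 of the 14 genes with 10 CPM there were called, against 0.166% of all genes higher and 0.687% lower, and the ratios ran from -0.19 for Jup and -0.16 for Pkp4 to 0.08 for Eppk1 and 0.18 for Dsg2.

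Of 12 transcription factors and coregulators that act on keratin genes or epithelial identity, 9 had at least 10 CPM in AEC2-like cells. In each library 3 of the 9 were higher and 0 lower by at least 1 in PATS-like cells. The 9 had medians of 0.62 and 0.46 against 0.20 and 0.17 over all genes with that level. Of all those genes, 11.1% were higher and 11.7% lower in the normal library, and 10.5% and 12.3% in the fibrogenic library. Fosl1 and Klf4 passed 10 CPM in PATS-like cells only. Sox4, a factor of immature and injured epithelium, stood at 846 against 101 CPM in normal (log2 ratio 3.06) and at 823 against 123 CPM in fibrogenic organoids (2.73). Fosl1, an AP-1 subunit, had log2 ratios of 2.00 and 2.19. The lowest in the normal library were Elf3 (-0.11) and Grhl2 (-0.07), both factors of epithelial identity, and in the fibrogenic library Grhl2 (-0.25) and Ehf (0.06). Between fibrogenic and normal PATS-like cells 0 of the 11 genes with 10 CPM there were called, against 0.166% of all genes higher and 0.687% lower. Ratios there ran from -0.12 for Ehf and -0.11 for Sox9 to 0.18 for Klf5 and 0.25 for Elf3.

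The genes most alike to the members in level were sought among 7971 genes over the same 27 cluster points, by Pearson r of log2 levels. For Krt8 they were Anxa1 (0.96), Acta1 (0.96), Psmd8, Clu and Pdcl3 (each 0.95), and for Krt18 Psmd8 (0.96), Clu (0.95), Anxa1 (0.95), Acta1 and Csrp1 (each 0.94). For Krt7 they were Anxa5, Myl12a, Myl12b and Cdkn2a (each 0.97) and Cavin3 (0.96). For Krt19 they were Anxa1 (0.95), Cavin3 and F3 (each 0.94), Tmsb10 and Ralb (each 0.93). For Krt17 they were Acta1 (0.95), Fermt1 and Ly6a (each 0.94), Actn1 (0.93) and Cnn3 (0.92). Krt17 was at or below 0.193 CPM in every point outside the PATS-like, PATS/AEC1-like and low-depth clusters, so its r rests on few points. The Krt8 and Krt18 lists shared 4 genes with each other and none with the Krt7 list. Anxa1, Clu and F3 are also PATS markers used for naming the groups. Among the members, Krt7 had r of 0.84 with Krt8 and 0.92 with Krt19.

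In the repetitive libraries, which held sorted GFP+ lung cells, keratins were scarce. Their whole tables held between 60 and 268 UMIs (PBS) or 114 and 540 UMIs (bleomycin) of each simple keratin, and FBs held between 0.0887 and 0.266 CPM. The single-dose libraries held between 25 and 88 UMIs of each, and no barcode groups were formed there. A cluster of 6 PBS and 15 bleomycin barcodes held 6 of 8 mesothelial markers, but the genes that led it by fold were the immunoglobulin genes Igkc, Ighm and Jchain, so it was given no cell type name. Of its 12343 Igkc UMIs after bleomycin, 12338 came from 1 barcode, and the PBS barcodes held none. At least 3 mesothelial markers were found in 3 of the 6 PBS and 9 of the 15 bleomycin barcodes. Among the markers, Wt1, a mesothelial transcription factor, had 64 and 272 UMIs and Upk3b 41 and 88 UMIs, while Msln, mesothelin, had 0 and 29 and Bnc1 0 and 14.

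Of the simple keratins, Krt19 had the most UMIs in this cluster. It had 29 UMIs, or 433 CPM (290 to 622), after PBS and 224 UMIs, or 624 CPM (545 to 712), after repetitive bleomycin. Over FBs its log2 ratio was 8.53 (PBS) and 9.05 (bleomycin). Krt7, Krt8 and Krt18 had 0 UMIs after PBS, under the limit of 44.8 CPM that a count of 0 allows, and 7, 3 and 5 UMIs after bleomycin. The sum of the 4 simple keratins stood at log2 ratios of 7.96 and 8.58 over FBs, and at 7.13 and 7.31 with keratins kept in the clustering, where the cluster held 7 and 27 barcodes. FBs were far under 10 CPM for each member, so that any member measured in the cluster had to exceed them, and no count of calls is given. Krt19 was found in 3 of 6 and 13 of 15 barcodes, with at most 22 and 41 UMIs in 1 barcode. Of the bleomycin barcodes, 2 held UMIs of all 8 mesothelial markers, and these had 24 and 1 Krt19, 1 and 5 Krt7, 2 and 1 Krt8 and 3 and 2 Krt18 UMIs. The 2 barcodes with 41 Krt19 UMIs held 2 and 1 of those markers. After PBS, barcodes with 5, 6 and 4 markers held 3, 4 and 22 Krt19 UMIs, and those with 2, 1 and 2 markers held none. In barcodes with at least 3 markers Krt19 thus stood at 624 CPM after PBS and 561 CPM after bleomycin, and in the other bleomycin barcodes at 705 CPM. The interval of the bleomycin over PBS ratio of Krt19 (log2 0.53, -0.03 to 1.14) spans 0.

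Epithelial barcodes led by Sftpc were also found among the sorted cells, 30 after PBS and 36 after bleomycin, with median depths of 15795 and 3819 UMIs. Krt8 stood at 189 and 224 CPM and Krt18 at 179 and 200 CPM there, and their intervals of the ratio spanned 0. Krt7 stood at 35.8 CPM (17 UMIs) after PBS and 127 CPM (42 UMIs) after bleomycin, a log2 ratio of 1.80 (0.97 to 2.70). Krt19 stood at 18.9 CPM (9 UMIs) and 148 CPM (49 UMIs), a log2 ratio of 2.91 (1.88 to 4.11). These 2 of 4 members compared were called higher, against 20% of all genes. The median gene stood at 0.26 here, and relative to it Krt7 stood at 1.54 and Krt19 at 2.65. The Krt7 UMIs came from 9 of 30 and 5 of 36 barcodes, and the Krt19 UMIs from 6 and 5 barcodes. After bleomycin, 1 barcode of 37214 UMIs held 41 of the 49 Krt19, 31 of the 42 Krt7, 37 of the 74 Krt8 and 31 of the 66 Krt18 UMIs, whereas no PBS barcode held more than 4 of Krt19 or 6 of Krt7. That barcode also held 171 UMIs of Ager, the AEC1 gene, out of 413 in the group, and 2188 of Sftpc. Without it, Krt19 stood at 27.3 CPM after bleomycin (log2 ratio 0.51, -0.97 to 2.02) and Krt7 at 37.6 CPM (0.07, -1.12 to 1.23), so that neither was called. Krt8 then stood at 126 CPM (-0.58) and Krt18 at 119 CPM (-0.58), below PBS. The higher Krt7 and Krt19 after bleomycin therefore rest on 1 barcode, a check added after seeing the data. Scgb1a1, the secretoglobin of club cells, had 177 UMIs in 22 PBS barcodes and 358 UMIs in 8 bleomycin barcodes of the cluster, and none in that barcode, while Trp63 had 0 and 3. The part of airway cells in these values was not tested. A GFP sort should remove epithelial cells, and how these passed it was not tested. The AEC2-like cells of the organoids held more Krt8, at 439 and 433 CPM, but the tables come from different sorts and cultures and are set side by side only.

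**Figure D5:**
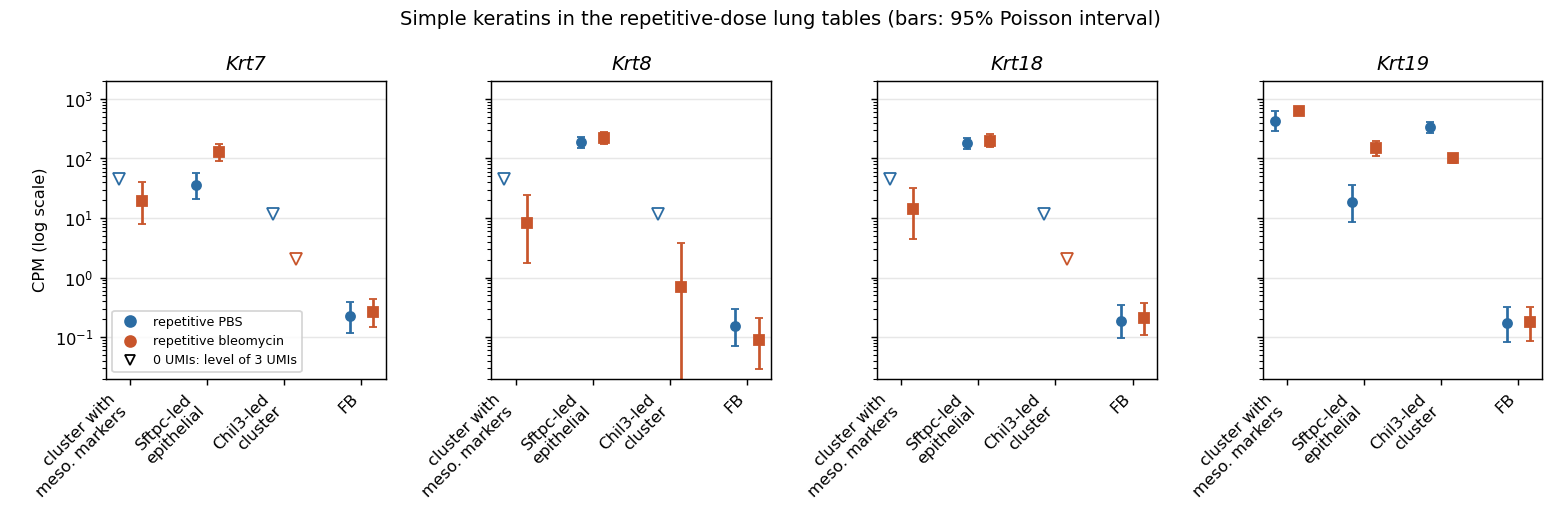
Levels of Krt7, Krt8, Krt18 and Krt19 (1 panel each) in CPM (log scale) in the cluster with 6 mesothelial markers and in Sftpc-led epithelial, Chil3-led and FB barcodes of the repetitive PBS and bleomycin libraries, with bars for 95% Poisson intervals and open triangles at the level of 3 UMIs where none was counted. In the cluster with mesothelial markers Krt19 stands at 433 and 624 CPM, and FBs stay at or below 0.266 CPM.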

How the data were processed

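Droplet single-cell RNA-seq was measured in 6 libraries, 1 per condition. The authors aligned and counted reads with Cell Ranger 3.0.1 against mm10 per the submitters' processing notes and deposited whole UMI counts for each gene in each barcode, not normalized. Values depend on the authors' choice of barcodes. Library totals ran from 7201081 to 238618743 UMIs.

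Counts were read with Python 3.11.15 and scanpy 1.11.5. The 2000 most variable genes, without keratins, mitochondrial genes and the lists below, gave 30 principal components, 20 neighbours and Leiden clusters (igraph 0.11.9) at a resolution of 1. Barcodes over 3 median absolute deviations and clusters over 25% in mitochondrial or over 0.5% in erythrocyte counts were removed, 729 in normal and 883 in fibrogenic organoids. A cluster was named when it held at least 3 markers of a type at 20% of the level in the highest cluster and in 20% of its cells, and a joint name needed 5 markers of the second type. Scrublet marked 2, 0, 2 and 0 barcodes in the organoid and repetitive libraries, too few to have worked, so doublets were in effect kept. Clusters with markers of 2 lineages (249 normal and 444 fibrogenic barcodes) were left out as mixed.

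UMIs were summed per group and scaled to CPM, 1 CPM was added, and groups were set against each other as log2 ratios, with exact Poisson and Clopper-Pearson intervals (scipy 1.17.1) at 95%. A gene was compared where either group had 10 CPM (for PATS-like over AEC2-like cells, where AEC2-like cells had), and called where the log2 ratio was at least 1 in size. No test was run, since each condition was 1 library. Beside the members, the text names the 5 highest other keratins, the 2 highest and 2 lowest genes of each list and the 5 most alike genes. The members and lists were chosen with earlier results of these data known. The ratio step was tested on simulated data. Alternatives changed the resolution, filter, doublets, weighting, centring, gating and the use of keratins in clustering, and 6 were added after seeing the data.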

Additional observations from a re-analysis of the deposited data

Results flagged for a closer look

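Krt19 stood at a log2 ratio of fibrogenic over normal of 0.15 in PATS-like and -0.89 in AEC2/AEC1-like cells. In PATS-like cells it ran from 0.02 to 0.19 over the alternatives, and no direction is given there. Krt8 stood at 0.41 in PATS/AEC1-like and -0.15 in AEC2/AEC1-like cells, on either side of 0. With 1 library per condition, these differences between groups were not tested.

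Among the sorted lung cells of the repetitive libraries, a cluster led by Chil3 and Mrc1, genes of alveolar macrophages, held 86 Krt19 UMIs in 17 PBS barcodes and 145 in 327 bleomycin barcodes before the filter on barcodes, or 338 CPM (271 to 418) and 100 CPM (84.6 to 118). Krt19 was found in 15 of 17 (88.2%) and 58 of 327 barcodes (17.7%), at median depths of 12628 and 2088 UMIs. Krt7 and Krt18 had no UMI there, Krt8 had 0 and 1, and the mesothelial markers Wt1, Msln and Upk3b had none. Epcam had 24 and 5 UMIs. The part of other cells in these values was not tested.

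In the repetitive bleomycin library, 1 barcode of 13321 UMIs that the filter had removed held 28 UMIs of Krt5, 102 of Krt14 and 23 of Krt17, with 15 of Krt19 and 5 of Trp63, and none of Krt8 or Krt18. Its mitochondrial share was 5.19%, and it lay in a cluster led by Scgb1a1 that was removed as a whole. That barcode held all Krt5 and Krt17 UMIs of the repetitive bleomycin library and 102 of its 105 Krt14 UMIs. The PBS library held no UMI of these 3 genes. In the single-dose bleomycin library Krt17 had 11 UMIs against 0 in the PBS library.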

How the results depend on the processing

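No paired analysis was possible because each condition was 1 library. Of 70 values of the main comparisons under the alternatives, 40 moved by less than their counting interval and 30 by more. Of 249 other values, 145 and 104 did. These counts include alternatives that could hardly move some values. Scrublet marked almost no barcodes, and leaving out clusters of low depth removed no AEC1-like or PATS-like cluster. The simple keratin sum in PATS-like over AEC2-like cells stayed high throughout. In the normal library it was 3.46 and took 3.38 with barcodes weighted equally, 3.54 with barcodes assigned 1 by 1, 3.57 at a resolution of 2, 3.57 with keratins kept in the clustering, 3.39 without the filter and 3.40 with PATS/AEC1-like cells joined. In the fibrogenic library it was 3.66 and took 3.63, 3.52, 3.62, 3.60 and 3.53 under the same alternatives from assignment onward, and 3.63 with the low-depth cluster counted as PATS-like.

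Fibrogenic over normal, the sum over all epithelial cells (0.45) took 0.25 with equal weights, 0.42 centred on the median gene, 0.44 without the filter and 0.47 without clusters of low depth. In AEC2-like cells (-0.11) it took -0.19 with equal weights and -0.066 with keratins kept. In AEC1-like cells (-0.08) it took -0.0305 with equal weights, 0.33 with barcodes assigned 1 by 1 and -0.22 at a resolution of 2. In PATS-like cells (0.09) it took 0.11 centred, -0.0019 with barcodes assigned 1 by 1, -0.15 at a resolution of 2, -0.0112 with keratins kept, 0.026 with PATS/AEC1-like cells joined and 0.0663 with the low-depth cluster counted. The stratified sum (0.08) took -0.43 with equal weights. The sum in the cluster with mesothelial markers over FBs took 7.13 for 7.96 (PBS) and 7.31 for 8.58 (bleomycin) with keratins kept. The causes were not tested.

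Over these alternatives Krt19 in AEC2-like cells ran from -0.55 to -0.34 and Krt17 in PATS-like cells from -0.99 to -0.49. The alternatives with joined groups, with the low-depth cluster, without clusters of low depth and without 1 epithelial barcode of the repetitive bleomycin library were chosen after seeing the data. Shallow barcodes, few PATS/AEC1-like barcodes, few barcodes with mesothelial markers and the single library per condition limit all of these values.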

Other observations

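A cluster removed from the repetitive libraries for its mitochondrial counts was led by Scgb1a1, the secretoglobin of club cells, and held 111 PBS and 472 bleomycin barcodes. It held 133 and 110 UMIs of Krt8, 167 and 126 of Krt18, 59 and 94 of Krt19 and 24 and 45 of Krt7. These UMIs entered no comparison.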
